A study of Mus musculus with 4 samples.

Results

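The very large interferon-inducible GTPase (Gvin) cluster is a row of closely related genes and pseudogenes on mouse chromosome 7. Its members were taken here as the loci of the deposited table that carry a transcript ID and overlap the mm9 interval chr7:113040000-113675000. There were 6 such loci, of 17576 in the table and 15883 with a transcript ID. The interval was selected on the FPKM values of these same libraries, as a run of neighbouring loci higher in pretreated cells, so the changes below describe the members and test nothing. No 2 members shared a span. The cells were mouse embryonic fibroblasts (MEFs) of the C57BL/6 strain, and all of them, the controls included, carried the H3.3-HA knock-in, in which a tagged H3.3 cDNA stands in place of H3f3b. The series crossed a pretreatment (naive or pretreated) with stimulation by interferon-beta (none, or 1 h at 100 U/ml), with 1 library in each of its 4 groups. The naive and the pretreated library at 1 h were compared, and the 0 h libraries were not analysed here. The agent and length of the pretreatment are not in the labels; the study is known for asking how an earlier exposure to interferon changes the response to a later one. The series title names RNA-seq, whereas each sample is described as scTSS-seq, and which of them was done was not tested.

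Interferons signal through JAK kinases to STAT and IRF transcription factors, which switch on antiviral genes in fibroblasts and most other cells. Families of large GTPases are among these genes: the guanylate-binding proteins (Gbp) and immunity-related GTPases (Irg), which act on the vacuoles of intracellular microbes, and the Mx proteins, which restrict viruses. The very large inducible GTPases are the biggest of these proteins, are induced by interferons, and remain the least understood in function.

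The deposited table gives transcript IDs and no symbols, and 0 of its IDs were found in the gene tables used. Member loci were therefore set beside the RefSeq genes of GRCm38 that lie within 500 kb of Gvin1, of which there are 25, by the length of their span. A match within 2 bp was found for 5 of the 6 members. XLOC_025050 (chr7:113300050-113358854 in mm9) spans 58805 bp, and Gvin1, the gene that gives the family its name, spans 58806 bp. XLOC_025048 (chr7:113043633-113102484) spans 58852 bp, and Gm4070, a second protein-coding copy that shares the synonym VLIG-1 with Gvin1, spans 58850 bp. XLOC_025049 (chr7:113219245-113222662) has the span of Gm8979, 3418 bp. XLOC_025051 (chr7:113465910-113468042) has the span of Gm8989, 2133 bp. XLOC_025052 (chr7:113565064-113584587) has the span of Gm4759, 19524 bp. RefSeq lists Gm8979, Gm8989 and Gm4759 as transcribed pseudogenes, copies that have lost an intact reading frame. XLOC_025053 (chr7:113649549-113672726, 23178 bp) had no match among these genes and is named by its ID. The 5 matches followed the order of the genes along the chromosome, which the matching did not use. A span is not proof of identity: 3 genes of chromosome 7 have the span of XLOC_025049 and 2 that of XLOC_025051. Each gene name below therefore stands for a locus with that gene's span.

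In the GENCODE annotation of GRCm38, Gvin1 (ENSMUSG00000045868.12) and Gm4070 (ENSMUSG00000078606.8) lie on the minus strand. Gm20663, on the other strand, overlaps Gm4070 and Gm8979, and the pseudogenes Gm18852 and Gm18853 lie within Gm4070 and Gvin1. Whether the authors' counting used strand is not given in the sources used here, so reads of overlapping genes cannot be told apart. The main transcripts of Gvin1 and Gm4070 each have 2 exons and 8795 bases, and the 7281 coding bases lie in 1 exon. Over these 8795 bases the transcripts differed at 3 positions, all in the coding part: G1805T, G4904A and C7075T. Each token gives the Gvin1 base, the position counted from 1 at the first base of the start codon, and the Gm4070 base. These stretches are shown because they are the sites at which reads of both genes could be told apart. The first stretch covers coding positions 1765 to 1844 of Gvin1 (GRCm38, chr7:106163417-106163496, minus strand) with the best-aligned stretch of 6 other transcripts of the cluster. Capitals mark bases that differ from Gvin1 or are absent from it.
Gvin1: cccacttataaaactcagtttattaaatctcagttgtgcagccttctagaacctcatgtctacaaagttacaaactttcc
Gm4070: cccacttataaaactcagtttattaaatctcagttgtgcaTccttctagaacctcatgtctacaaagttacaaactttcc
Gm8979: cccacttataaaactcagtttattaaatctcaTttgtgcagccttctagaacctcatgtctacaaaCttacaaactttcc
Gm8989: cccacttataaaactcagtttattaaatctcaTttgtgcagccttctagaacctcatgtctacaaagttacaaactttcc
Gm4759: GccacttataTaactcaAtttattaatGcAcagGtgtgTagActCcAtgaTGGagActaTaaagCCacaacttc
Gm8995: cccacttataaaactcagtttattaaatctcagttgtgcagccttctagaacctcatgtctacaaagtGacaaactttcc
Gm1966: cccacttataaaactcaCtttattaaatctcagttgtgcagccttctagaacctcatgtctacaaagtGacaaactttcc
The second stretch covers coding positions 4864 to 4943 (Gvin1, chr7:106160318-106160397; Gm4070, chr7:105898901-105898980, both on the minus strand).
Gvin1: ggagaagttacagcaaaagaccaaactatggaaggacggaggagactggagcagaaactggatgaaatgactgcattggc
Gm4070: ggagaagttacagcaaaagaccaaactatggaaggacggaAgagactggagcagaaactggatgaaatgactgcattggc
The third covers coding positions 7035 to 7114 (Gvin1, chr7:106158147-106158226; Gm4070, chr7:105896730-105896809, both on the minus strand).
Gvin1: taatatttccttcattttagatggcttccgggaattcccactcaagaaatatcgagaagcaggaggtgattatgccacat
Gm4070: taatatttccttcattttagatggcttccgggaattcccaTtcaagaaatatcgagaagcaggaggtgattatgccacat
In the first stretch Gm4070 differed from Gvin1 at 1 base, Gm8989 and Gm8995 at 1 each, and Gm8979 and Gm1966 at 2 each. Gm4759 was the distant copy, with 15 substitutions, 2 extra and 8 missing bases. Gm8995 and Gm1966, further copies of the cluster, had no member locus of matching span. The starts matched to Gm8979, Gvin1, Gm8989 and Gm4759 differ between mm9 and GRCm38 by almost the same distance, and that of Gm4070 by a somewhat larger one. At the distance of the former, XLOC_025053 would overlap Gm8995, and XLOC_025054, the locus after the interval, would overlap Gm1966. An overlap in position is not proof of identity either.

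For identity, the shorter transcript was aligned within the longer one, whose unaligned ends were left out. Over the aligned part Gm4070 was 99.97% identical to Gvin1, Gm8979 96.2%, Gm8989 96.0%, Gm1966 93.0%, Gm8995 91.9% and Gm4759 78.0%. That part held 8795 positions for Gm4070, and from 6796 (Gm4759) to 7338 (Gm8995) for the others. Gm8979 and Gm8989 were 98.9% identical to each other. Of the 50-base windows of Gvin1, 98.3% also occur in Gm4070, 22.6% in Gm8979, 19.9% in Gm8989 and 0.67% in Gm4759. Only 76 of 8746 Gvin1 windows (0.87%) and 100 of 8746 Gm4070 windows (1.14%) occur in no annotated transcript of another gene. The share was 14.2% for Gm8979, 21.4% for Gm8989 and 97.5% for Gm4759. Windows of 36 bases put the overlap of Gvin1 with Gm4070 at 98.8%, and windows of 100 bases at 96.6%. The read length and the handling of reads that align to several places are not given in the sources used here. Thus short reads of Gvin1 and Gm4070 cannot in general be told apart, whereas those of Gm4759 mostly can. The GENCODE transcripts of the 3 pseudogenes are not the RefSeq models whose spans were matched, so these shares describe the annotated copies and not the exact models behind the deposited values.

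**Figure D1:**
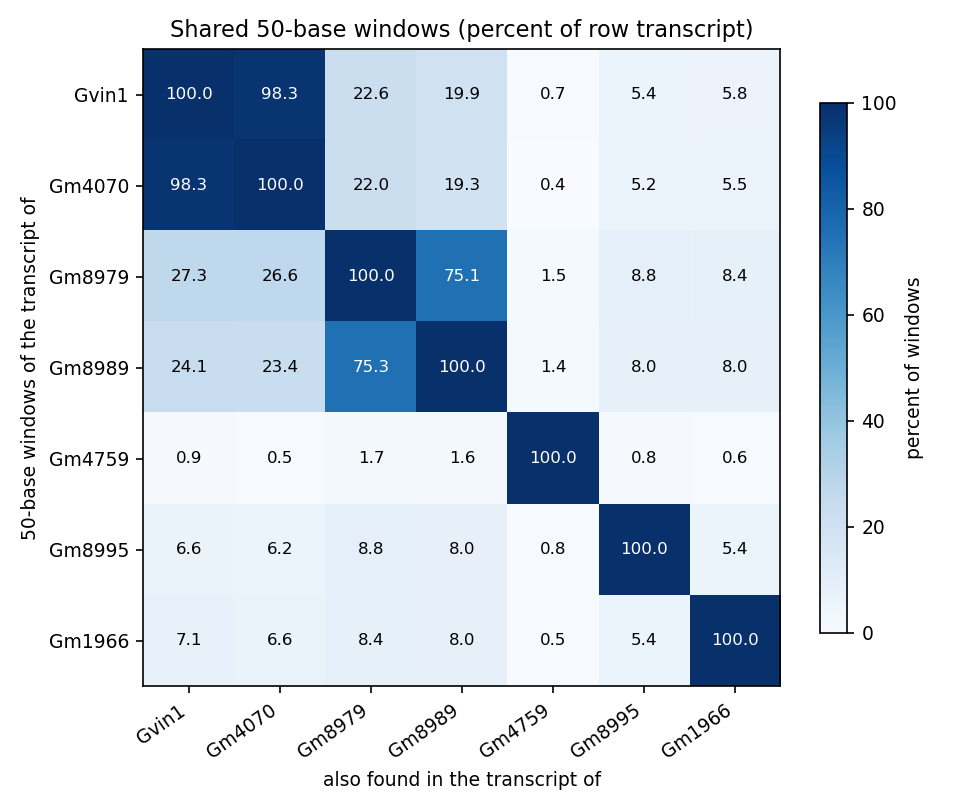
Percentage of the 50-base windows of each transcript (rows) that also occur, on either strand, in each other transcript of the cluster (columns), in the GENCODE annotation of GRCm38. Gvin1 and Gm4070 share 98.3% of their windows, and Gm4759 shares at most 1.7% with any other transcript shown.

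All 6 members were higher in pretreated than in naive cells, by 2.58-fold to 4.99-fold. From the 1 h libraries alone, a level already raised before the stimulation and a stronger response to it cannot be told apart. The values are FPKM (fragments relative to the length of the transcript and to all mapped fragments). Levels of different loci are set side by side per length on the reading that the values are RNA-seq FPKM; with a start-site assay, or with reads of several places dropped, they would not be comparable, and this was not tested. Each value comes from 1 library, so none has a replicate error. Among 15334 loci above 0 in both libraries, an FPKM at least 2-fold higher in pretreated cells was found at 9.55%. In the authors' deposited table, 4 of the 6 members were called higher at a q-value under 0.05, against 3.91% of the 13388 loci the authors tested. The others, Gm8989 and Gm4759, were not tested there. Because the same contrast singled out the interval, nothing is read from these counts. With a single value per library, more cells with a transcript and more of it in each cell cannot be told apart.

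**Figure D2:**
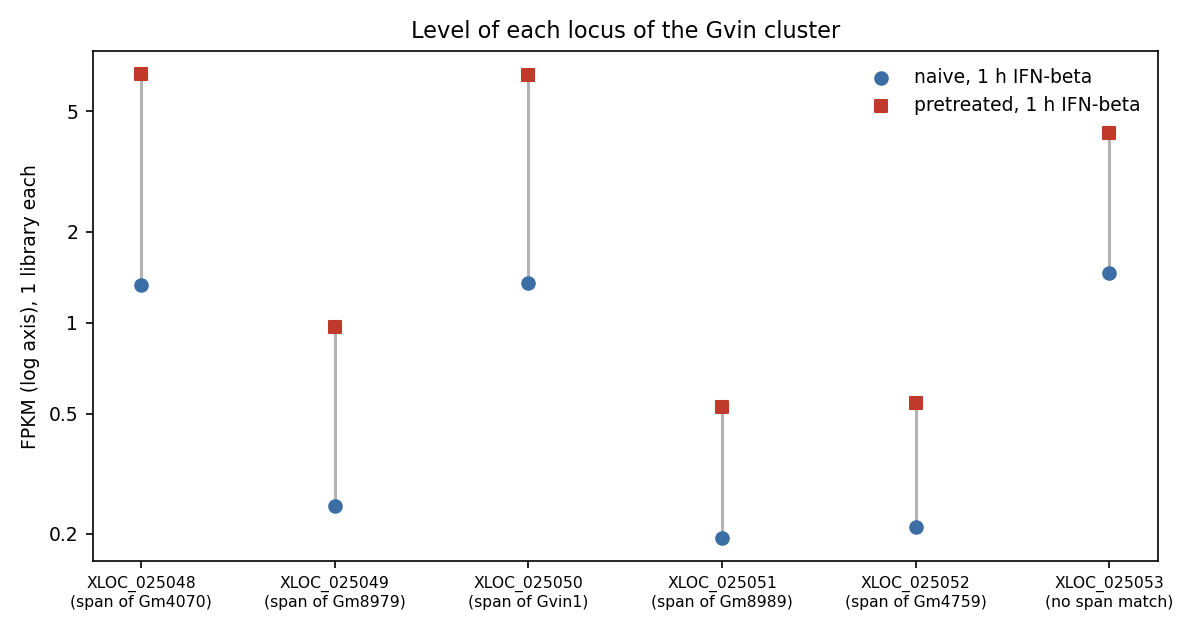
FPKM (log axis) of the 6 loci of the cluster, in chromosomal order, in the naive (circles) and the pretreated library (squares) after 1 h of interferon-beta, 1 library each. Every locus lies higher in the pretreated library, and 3 loci lie well below the others in both.

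The protein-coding copies had almost the same level. The Gvin1 locus was at 1.35 FPKM in the naive and 6.61 FPKM in the pretreated library, a ratio of 4.89. The Gm4070 locus was at 1.33 FPKM in the naive and 6.64 FPKM in the pretreated library, a ratio of 4.99. The level of the Gm4070 locus was 0.984 of that of the Gvin1 locus in the naive library and 1.005 of it in the pretreated library. Since the annotated transcripts share nearly every window, the contributions of these copies to either value cannot be told apart. Against the 17552 usable loci of the table, the Gvin1 locus stood at percentile 45.7 in naive and 74.4 in pretreated cells. It was thus near the middle of all levels in naive cells and in the upper part in pretreated cells.

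XLOC_025053, the last of the member loci, had 1.45 FPKM in naive cells, the highest naive value of the 6 members. It had 4.24 FPKM in pretreated cells, below the protein-coding copies, a ratio of 2.91. Its order against the Gvin1 locus differed between the libraries. In naive cells the Gvin1 locus was at 0.931 of the level of XLOC_025053, and in pretreated cells at 1.56 times that level.

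The loci with the spans of pseudogenes were low in both libraries. Gm8979 was at 0.248 FPKM in the naive and 0.964 FPKM in the pretreated library, a ratio of 3.89. Gm4759 was at 0.210 FPKM in the naive and 0.543 FPKM in the pretreated library, a ratio of 2.58. Gm8989 was at 0.193 FPKM in the naive and 0.524 FPKM in the pretreated library, a ratio of 2.71. The Gm4759 locus had the lowest ratio of the 6 members, close to that of Gm8989. Its annotated transcript shares few windows with the other copies, and whether this bears on the ratio was not tested. In the naive library the Gvin1 locus was 5.46 times as high as Gm8979 and 6.44 times as high as Gm4759, and Gm8989 was lower still.

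Summed over the 6 members, the level was 4.79 FPKM in the naive and 19.5 FPKM in the pretreated library. The Gvin1 locus, the Gm4070 locus and XLOC_025053 held most of it. Reads that fit both the Gvin1 and the Gm4070 locus may have been counted at each, so the sum may hold some reads more than once. These 3 loci averaged at least 1 FPKM over the libraries, and they differed by 1.69, 1.71 and 1.09 in log2(FPKM + 1). On this scale the log2 differences were 0.65 for Gm8979, 0.35 for Gm8989 and 0.35 for Gm4759, since adding 1 FPKM shrinks the change of low loci. Of the 10228 loci that averaged at least 1 FPKM, 2.83% were at least 2-fold higher on that scale. Their median difference was -0.16.

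The precision of these ratios was read from the test statistic in the authors' deposited table, which matches the deposited p-value as a two-sided normal deviate and was taken as the log ratio over its error. Dividing the log2 ratio by it gives an implied standard error that covers the reads of the libraries and not the spread between cultures. In the authors' deposited table this gave a log2 ratio of 2.29 with an implied SE of 0.30 for Gvin1 (95% interval 1.70 to 2.88). For Gm4070 it was 2.32 with an implied SE of 0.30 (1.73 to 2.91), and for XLOC_025053 it was 1.54 with an implied SE of 0.25 (1.06 to 2.03). The low loci were less certain: 1.96 with an implied SE of 0.53 for Gm8979, 1.44 with 0.68 for Gm8989 and 1.37 with 0.60 for Gm4759. For Gm8989 the interval ran from 0.10 to 2.77, and for Gm4759 from 0.20 to 2.54. The q-values in the authors' deposited table were 6.05e-12 for Gvin1, 2.82e-12 for Gm4070, 4.08e-08 for XLOC_025053 and 0.00464 for Gm8979. They compare the reads of 1 library with those of another, not the conditions.

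The table gives no read counts. From low values, the depth of the pretreated library was estimated at 0.492 of that of the naive library. This estimate takes the p-values of loci listed at 0 in 1 library as one-sided. If the implied error were that of counting alone, Gvin1 would rest on 32.2 naive and 77.5 pretreated reads. The same reading gave 58.0 and 83.2 reads for XLOC_025053, 11.1 and 21.3 for Gm8979, 10.4 and 13.3 for Gm4759, and 7.87 and 10.5 for Gm8989. Any further variance in the authors' model would make the true numbers higher. XLOC_004134, a locus of the Irg intervals described below, had 486 FPKM in naive cells, yet the same reading gave it only 32.1 naive reads. The reading therefore does not hold for every locus, and whether it holds for the members was not tested. On this reading the 3 low loci rest on few reads in both libraries.

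Differences among the members were near the size of these errors. The log2 ratio of Gm4070 exceeded that of Gvin1 by 0.031 (95% interval -0.81 to 0.87). That of Gvin1 exceeded that of XLOC_025053 by 0.75 (-0.019 to 1.51), and that of Gm4070 exceeded it by 0.78 (0.012 to 1.54). The log2 ratio of Gvin1 exceeded that of Gm4759 by 0.92 (-0.39 to 2.23). These intervals treat the loci as independent, which shared reads would break, and are not adjusted for the 15 pairs. Such intervals do not show that the copies changed alike.

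The loci beside the interval are given for comparison, and its edges were fixed by the choice of members. The locus that follows it, XLOC_025054, stood at 0.0396 FPKM in the naive and 0.0558 FPKM in the pretreated library. These values were too low for its ratio of 1.41 (implied SE 1.66 on the log2 scale) to show whether it changed. By position XLOC_025054 would overlap Gm1966, a further copy of the cluster, so it cannot be taken as a locus outside the family. It is counted among the flanking loci below. The 3 loci that precede the interval share a single span, and how reads were divided among them is not known. One of them, XLOC_025047, was at 34.8 FPKM in the naive and 42.0 FPKM in the pretreated library, and XLOC_023783 had 19.5 and 13.1 FPKM. A further 5 loci before the interval share a span and failed the authors' estimation, and were left out. Of 13 usable flanking loci with a transcript ID within 400 kb of the interval, 0 were at least 2-fold higher, and those above 0 in both libraries had ratios from 0.451 to 1.60. The highest of these, XLOC_023781, went from 24.6 to 39.3 FPKM and was called higher in the authors' deposited table (q-value 0.0228). The interval also held XLOC_025427, a 447 bp locus without a transcript ID and so no member. It was listed at 1.63 FPKM in naive cells and at 0 in pretreated cells, the opposite direction to the members. The authors' deposited table called it lower (q-value 0.0187).

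**Figure D3:**
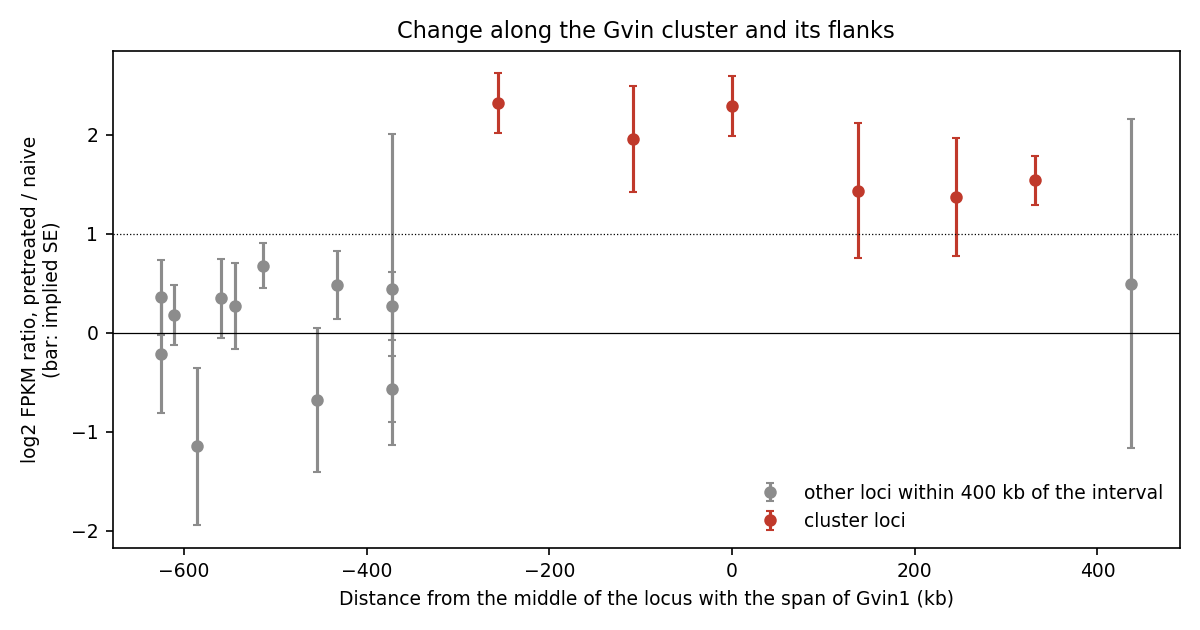
Log2 FPKM ratio of pretreated to naive cells, with the implied SE from the authors' deposited table, against the distance (kb) from the middle of the locus with the span of Gvin1. The 6 cluster loci lie above the dotted line of a 2-fold increase, and the points of the flanking loci lie below it. The flanking loci include XLOC_025054, which by position would overlap the copy Gm1966.

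Intervals of other GTPase families were set beside these values. Loci with a transcript ID were taken from the mm9 intervals of the Gbp genes on chromosomes 3 and 5, the Irg genes on chromosome 11 and the Mx genes on chromosome 16. These intervals were recalled and could not be checked against an mm9 annotation, and only 3 of their 18 loci had the span of a gene of these families (Gbp2, Mx1 and Mx2), so the membership of the others is unchecked. Of the 18 loci, 9 share a span with another locus, so they are not all separate. In pretreated cells 11 of the 18 were at least 2-fold higher, against 9.55% of all loci above 0 in both libraries. Their median ratio was 2.43, and 0 were at least 2-fold lower. The median ratio was 3.40 for the 6 Gvin members and 0.886 for all 15334 loci above 0 in both libraries. On the log2(FPKM + 1) scale without a filter the order was the reverse, with medians of 1.26 for the 18 loci and 0.87 for the 6 members. Among loci averaging at least 1 FPKM it was 1.28 against 1.69, but 2.09 against 1.69 with shared spans counted once. The order of these groups therefore depended on the processing. The authors' deposited table called 10 of the 17 that were tested there higher, against 3.91% of all 13388 tested loci. No test of the difference between the families was possible with 1 library per group.

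Pretreated levels in the Gvin cluster ran from 0.524 to 6.64 FPKM, and those of the 18 other loci from 0.0726 to 861 FPKM. On chromosome 16, XLOC_010328, with the span of Mx1, was at 17.6 FPKM in the naive and 91.0 FPKM in the pretreated library, a ratio of 5.18. XLOC_009923, with the span of Mx2, had 23.2 and 58.0 FPKM, a ratio of 2.50. RefSeq lists both Mx1 and Mx2 of GRCm38 as transcribed pseudogenes. On chromosome 3, XLOC_016858 had the highest pretreated level, with 15.7 and 122 FPKM, a ratio of 7.79, and shares its span with 2 further loci. XLOC_016859, with the span of Gbp2, stood above XLOC_016858 in naive cells, with 58.9 naive and 118 pretreated FPKM, a ratio of 2.005. The largest ratio of the 18 was at XLOC_020486 on chromosome 5, with 0.211 naive and 4.77 pretreated FPKM, 22.6-fold higher. XLOC_020487, beside it, had the highest pretreated level of that interval, with 7.52 and 31.5 FPKM. In the first interval on chromosome 11, 3 of 8 loci were at least 2-fold higher and the median ratio was 1.40. XLOC_004139 there had the highest pretreated level and the largest ratio, 140 and 861 FPKM, a ratio of 6.14, and shares its span with 3 further loci. XLOC_004134 stood above XLOC_004139 in naive cells, with 486 naive and 703 pretreated FPKM, a ratio of 1.45. In the remaining Irg interval of that chromosome, XLOC_003276 had 2.54 and 21.6 FPKM, a ratio of 8.49, and XLOC_003277 had 142 and 344 FPKM, a ratio of 2.42. The Gvin1 and Gm4070 loci had ratios of 4.89 and 4.99 beside 5.18 for the Mx1 locus. Their listed FPKM was lower than that of the Mx1 locus, but the share of their reads that was counted is unknown, so the levels cannot be ranked firmly.

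**Figure D4:**
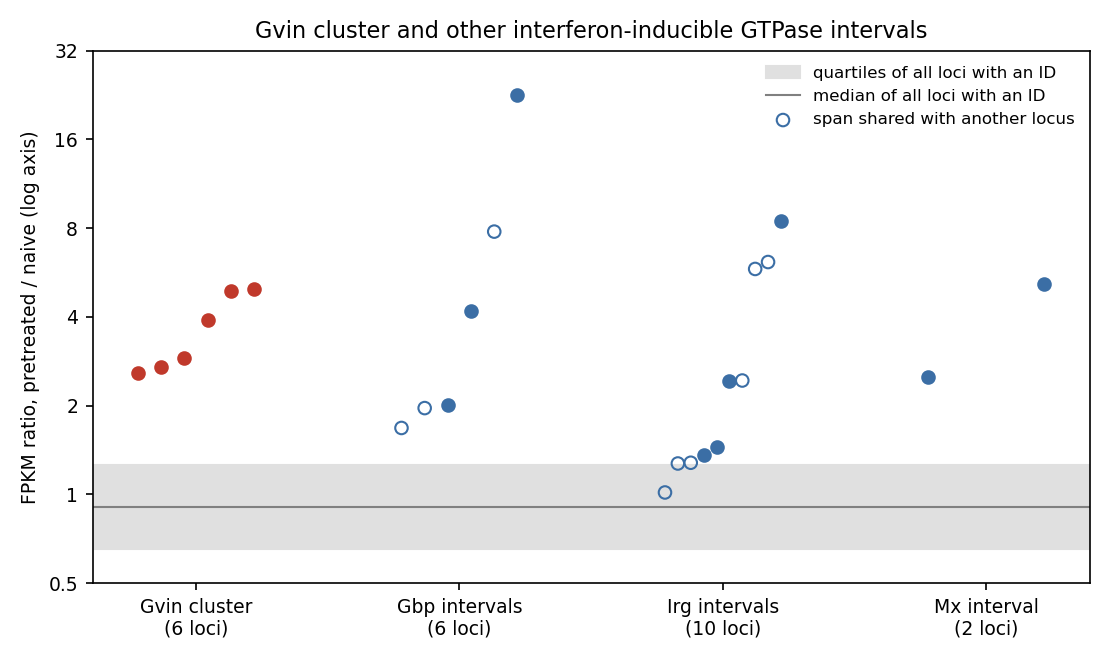
FPKM ratio of pretreated to naive cells (log axis) for the 6 loci of the Gvin cluster and the 18 loci of the Gbp, Irg and Mx intervals, each point being 1 locus. Open points share their span with another locus, and the grey band and line give the quartiles (0.651 and 1.25) and the median (0.909) of 13937 loci with an ID above 0 in both libraries.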

How the data were processed

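RNA of MEFs at 1 h of interferon-beta was compared between the naive and the pretreated library. Per the submitters' processing notes the tools were TopHat and Cufflinks 1.2.1 and the build was mm9. Per the file headers the authors deposited FPKM values, log2 fold changes (other numbers stand where a value is 0), a test statistic (a score), p-values and q-values per locus. Annotation, filters and scaling between libraries are not given in the sources used here. Deposited starts were raised by 1 to count from 1. Changes were log2(FPKM + 1) differences at loci averaging at least 1 FPKM over the libraries, and FPKM ratios without a filter. Loci of status FAIL or HIDATA were left out. Relative depth came from loci without an ID listed at 0 in 1 library, with 14 spans compared. Only loci whose p-value, taken here as one-sided, read as close to a small whole number of reads were used. Transcripts (GENCODE, GRCm38) were aligned with edlib 1.3.9.post1. Python 3.11.15, pandas 2.3.3 and scipy 1.17.1 were used, and the counting of changes was tested on simulated data. Every member is named; from each comparator interval, recalled from the mm9 annotation, the loci with the highest pretreated FPKM and the largest ratio are named, a choice that favours large ratios. XLOC_009923, XLOC_016859 and XLOC_004134 were added after their values were seen. Members, lists and intervals were chosen with earlier results of these data known. With no symbols, the labelled cell type could not be set against marker genes. Proteins and promoter motifs were not analysed here. 0 columns of other samples were present.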

Additional observations from a re-analysis of the deposited data

How the results depend on the processing

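With 1 library per group no replicate could be left out. No paired analysis was possible because the labels give no replicate numbers and groups hold a single library. The counts on the log2(FPKM + 1) scale were 3 cluster loci at least 2-fold higher and 0 lower, with a median of 1.69. A minimum mean FPKM of 5 left no cluster locus, so the count was 0 and there was no median. A 4-fold threshold also gave 0 on this scale, although the FPKM ratios of the Gvin1 and Gm4070 loci were 4.89 and 4.99. Without a filter the count was 3 and the median over all 6 members 0.87, since the low loci shrink on this scale. With neither filter nor pseudocount, an alternative chosen after seeing the data, 6 were at least 2-fold higher. Centring on the median of all loci gave 3, with a median of 1.85. The comparator loci at least 2-fold higher numbered 10 of 16, and 6 at the 4-fold threshold. Counting shared spans once moved their median from 1.28 to 2.09, above the 1.69 of the cluster loci. All loci gave 289 higher and 728 lower; a pseudocount of 0.1 gave 465 and 1175, a minimum of 5 gave 176 and 452, a 4-fold threshold 99 and 143, and neither filter nor pseudocount 1465 and 2260. Only loci with an ID gave 391 lower. Beyond fewer loci or a stricter threshold, the cause was not tested. The low members had the widest implied errors, and the part of depth in this was not tested.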
